A study of Homo sapiens with 6 samples.

Results

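Genes of cell-cell adhesion, 7 classical and related cadherins (CDH1, CDH2, CDH3, CDH4, CDH6, CDH11 and CDH13) and 3 catenins (CTNNA1, CTNNB1 and CTNND1), 10 in all, were followed in RNA sequencing data of 3 human cell lines. They were chosen by symbol from the deposited tables, as 10 of 23340 gene names kept. All 10 passed the filter on low values, among 15638 genes tested, and CDH6 passed it only through the libraries with the HT-29 label. The lines were MCF10A, a non-tumorigenic mammary epithelial line and the reference here, HT-29, a colon adenocarcinoma line that its label gives as stimulated with IFN-γ (200 U per ml for 24 hours), and MDA-MB-436, a breast adenocarcinoma line with no treatment given. Each line had 2 libraries, of which 1 was labelled 25M reads and the other 50M or, in the title of the MCF10A library, 100M. Values of a line are given with the 25M library first. Each group is 1 established line, so a difference between lines is one between single lines, and with no unstimulated HT-29 library the line and its treatment cannot be told apart. The labels do not say whether both libraries of a line come from different cultures. Each p-value is therefore set against the spread between libraries alone, and that spread may be technical.

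Classical cadherins are calcium-dependent membrane proteins that hold neighbouring cells together at adherens junctions, mostly by binding the same cadherin on the next cell. Their cytoplasmic tails bind β-catenin and p120-catenin, and β-catenin in turn binds α-catenin, which links the complex to actin. Exchange of E-cadherin for N-cadherin, called the cadherin switch, is a known feature of epithelial-mesenchymal transition in development and in carcinoma.

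The labels were checked first against genes that mark the lines. KRT20, an intestinal keratin, had normalised counts (the deposited read counts scaled by 1 factor per library) of 29899.7 and 30879.7 in labelled MDA-MB-436, 0 and 0.547 in labelled HT-29, and 0 and 1.47 in MCF10A. VIL1, which encodes the microvillus protein villin, stood at 2055 and 2198 in labelled MDA-MB-436 and had no read in the other 4 libraries. VIM, the mesenchymal filament vimentin, stood at 16.5 and 7.39 in labelled MDA-MB-436, against 36599 and 35267 in labelled HT-29 and 25901 and 26246 in MCF10A. The intestinal genes CDX2 and LGALS4 followed KRT20. CIITA, a transactivator induced by IFN-γ, had 8790.4 and 8894 in labelled MDA-MB-436 and 54.0 and 39.4 in labelled HT-29. These markers go against both labels, and MCF10A carried its basal keratin KRT5 (424101 and 416184). The groups were kept as given and are called labelled HT-29 and labelled MDA-MB-436, so every direction below belongs to a label, not to a line whose identity was settled.

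The 3 groups held 3 different sets of the cadherins followed here. Among these, labelled MDA-MB-436 had CDH1 almost alone, labelled HT-29 had CDH2 with CDH11, CDH13 and CDH4, and MCF10A had CDH3 and CDH1 with CDH13 and CDH4. Other cadherin genes were present too, such as CDHR5 in labelled MDA-MB-436 (normalised counts of 3368 and 3482) and CDH24 in labelled HT-29 (599 and 541). CDH1 was 4.24-fold higher in labelled MDA-MB-436 than in MCF10A and 1327-fold lower in labelled HT-29. CDH2 ran the other way, 63.6-fold higher in labelled HT-29 than in MCF10A. CTNNB1 differed by less than 2-fold between any pair of groups. A gene was called different at a Benjamini-Hochberg adjusted p below 0.05, from a limma fit across all 15638 genes, with a log2 fold change of at least 1 in size.

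CDH1 encodes E-cadherin, the main cadherin of epithelia. Its normalised counts were 5307 and 5324 in MCF10A, 4.50 and 3.83 in labelled HT-29, and 22793 and 22477 in labelled MDA-MB-436. Labelled HT-29 was lowest, on 3 and 7 reads, labelled MDA-MB-436 was highest, and no groups overlapped. On the log2(normalised count + 1) scale, on which low genes change by less than their true fold, CDH1 differed by 2.09 ± 0.0655 (SE, n = 2 libraries per line; limma adjusted p = 2.55e-08) between labelled MDA-MB-436 and MCF10A. Between labelled HT-29 and MCF10A the difference was -10.01 (limma adjusted p = 4.28e-11), and between labelled HT-29 and labelled MDA-MB-436 it was -12.10 (1.56e-11). As ratios of pooled reads, CDH1 was 4.24-fold higher in labelled MDA-MB-436 than in MCF10A (95% counting interval 4.16 to 4.32). In labelled HT-29 it was 1327-fold lower than in MCF10A (721 to 2768) and 5624-fold lower than in labelled MDA-MB-436 (3058 to 11730). Intervals of this kind cover counting error only, and in these bulk libraries fewer cells with a transcript and less of it per cell cannot be told apart.

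CDH2 encodes N-cadherin, the cadherin of neural and mesenchymal cells. Its normalised counts were 73.0 and 69.7 in MCF10A, 4553 and 4446 in labelled HT-29, and 0 and 0.616 in labelled MDA-MB-436. The order of the groups was thus the reverse of that for CDH1, again without overlap, and labelled MDA-MB-436 held 1 read in all. CDH2 was called higher in labelled HT-29 than in MCF10A, with a log2 fold change of 5.96 ± 0.234 (SE; limma adjusted p = 1.18e-07), or 63.6-fold in pooled reads (54.9 to 74.0). It was called lower in labelled MDA-MB-436 than in MCF10A, by -5.83 (1.05e-07). That single read gives a ratio of 148.5-fold, with a counting interval of 26.3 to 5898. Over labelled MDA-MB-436, CDH2 in labelled HT-29 had a log2 fold change of 11.79 (limma adjusted p = 2.30e-09), with a pooled ratio of 9439-fold (1694 to 372851).

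Several repressors of cadherin genes bind E-boxes, so the promoters of the 10 genes were searched for CAGGTG or its reverse complement CACCTG, and for the GC box GGGCGG or CCGCCC, in the 250 bases before each start site that RefSeq gives on GRCh38.p14. RefSeq promoter entries matched 4 of the 10 genes (CDH2, CDH4, CTNNA1 and CTNNB1), with 9 entries, and did not match CDH1, CDH3, CDH6, CDH11, CDH13 or CTNND1. Shown are CDH2, which differed most between groups among the 4, by the entry of its 2 that holds a motif, CTNNB1, which differed least, and the single entry, of CDH4, with an E-box. Each is printed 5′ to 3′ on the gene's strand, with every match to either motif in capitals.
CDH2 (chr18:28177131-28177380, minus strand): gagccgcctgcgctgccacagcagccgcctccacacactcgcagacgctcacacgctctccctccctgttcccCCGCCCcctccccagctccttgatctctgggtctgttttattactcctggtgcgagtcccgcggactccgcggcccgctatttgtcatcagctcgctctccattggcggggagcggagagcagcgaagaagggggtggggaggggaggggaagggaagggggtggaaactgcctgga
CDH4 (chr20:61499171-61499420, plus strand): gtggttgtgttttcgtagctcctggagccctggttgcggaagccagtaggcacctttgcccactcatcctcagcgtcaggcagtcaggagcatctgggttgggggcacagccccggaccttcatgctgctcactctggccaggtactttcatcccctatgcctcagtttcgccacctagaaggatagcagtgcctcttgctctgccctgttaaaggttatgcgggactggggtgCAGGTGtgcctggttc
CTNNB1 (chr3:41199255-41199504, plus strand): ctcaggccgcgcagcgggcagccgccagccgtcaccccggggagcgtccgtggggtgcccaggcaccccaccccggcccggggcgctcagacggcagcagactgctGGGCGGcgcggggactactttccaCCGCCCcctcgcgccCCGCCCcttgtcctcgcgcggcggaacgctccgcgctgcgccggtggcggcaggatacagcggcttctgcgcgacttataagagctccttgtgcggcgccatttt

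The printed CDH2 window holds 1 GC box and no E-box of these letters, with 66.0% G or C and 17 CpG. The other CDH2 entry holds neither motif, with 42.0% G or C and 4 CpG. The printed CDH4 window holds 1 E-box, CAGGTG, and no GC box. The other CDH4 entry holds neither motif, with 63.6% G or C and 12 CpG. In the CTNNB1 window there are 3 GC boxes, 34 CpG and 74.4% G or C. No printed window holds both motifs. Of 35116 RefSeq promoter windows of that length, 17.5% hold CAGGTG or CACCTG and 42.6% hold GGGCGG or CCGCCC, and their median G or C content is 58.0%. The matches describe the letters only, since no assay here measured promoters.

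CDH3 encodes P-cadherin, a cadherin of basal epithelial cells. It had normalised counts of 10546 and 10246 in MCF10A, 43.5 and 35.0 in labelled HT-29, and 148 and 184 in labelled MDA-MB-436. MCF10A was far above both, and labelled HT-29 was lowest, without overlap. CDH3 was 58.8-fold lower in labelled MDA-MB-436 than in MCF10A (53.0 to 65.3; log2 fold change -5.97, limma adjusted p = 3.67e-09). In labelled HT-29 it was 276-fold lower than in MCF10A (226 to 343; log2 fold change -8.02, limma adjusted p = 1.64e-09). The 2 low groups also differed, by a log2 fold change of -2.05 (1.53e-06) for labelled HT-29. These low levels amounted to 0.418% and 0.337% of the MCF10A mean in labelled HT-29, where KRT5 stood at 0.0561% and 0.0184% of its own MCF10A mean. CDH3 and CDH1 are neighbouring coding genes in the RefSeq annotation, and their order across the lines differed: MCF10A was highest for CDH3, labelled MDA-MB-436 for CDH1.

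CDH4 encodes R-cadherin, a relative of N-cadherin first described in retina. MCF10A had normalised counts of 2766 and 2897, labelled HT-29 had 582 and 598, and labelled MDA-MB-436 had 35.0 and 22.2. Labelled HT-29 thus held a middle place, without overlap, whereas CDH1 and CDH3 were lowest there. The gene was 4.84-fold lower in labelled HT-29 than in MCF10A (4.57 to 5.12; log2 fold change -2.26, limma adjusted p = 7.58e-06). For labelled MDA-MB-436 the pooled ratio to MCF10A was 114-fold lower (87.2 to 153; log2 fold change -6.62, limma adjusted p = 1.18e-08). It was 23.6-fold higher in labelled HT-29 than in labelled MDA-MB-436 (18.0 to 31.7; log2 fold change 4.35, limma adjusted p = 1.20e-07).

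CDH13 encodes T-cadherin, which has no transmembrane or cytoplasmic part and is held in the membrane by a lipid anchor, so that it does not bind catenins. Its normalised counts were 2371 and 2425 in MCF10A, 579 and 539.5 in labelled HT-29, and 2.06 and 3.08 in labelled MDA-MB-436. The order of the groups was that of CDH4, with 6 reads in all in labelled MDA-MB-436. Against MCF10A it was 4.39-fold lower in labelled HT-29 (4.14 to 4.66; log2 fold change -2.10, limma adjusted p = 3.87e-06). In labelled MDA-MB-436 it was 849-fold lower (390 to 2313; log2 fold change -9.41, limma adjusted p = 8.20e-10), and labelled HT-29 exceeded it by 193-fold (88.6 to 528).

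CDH11 encodes OB-cadherin, a cadherin of osteoblasts and other mesenchymal cells. Normalised counts were 33.7 and 20.1 in MCF10A, 597 and 536 in labelled HT-29, and 2.06 and 0 in labelled MDA-MB-436. The groups lay in the same order as for CDH2, and labelled MDA-MB-436 again held 1 read in all. CDH11 was 24.1-fold higher in labelled HT-29 than in MCF10A (18.5 to 31.8; log2 fold change 4.39 ± 0.511 SE, limma adjusted p = 7.92e-05). It was lower in labelled MDA-MB-436 than in MCF10A by a log2 fold change of -3.95 (limma adjusted p = 1.44e-04), a ratio of 48.4-fold with a counting interval of 8.36 to 1944. Labelled HT-29 over labelled MDA-MB-436 gave 8.34 (limma adjusted p = 1.27e-06), a ratio on the same read of 1165-fold (209 to 46030).

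CDH6 encodes K-cadherin, a cadherin of kidney and of neural crest derivatives. Labelled HT-29 had normalised counts of 40.5 and 38.3, on 27 and 70 reads, and the other 4 libraries had none. A count of 0 allows up to 3 reads over a line, a normalised count of 1.17 in MCF10A and of 1.42 in labelled MDA-MB-436. Against that floor CDH6 was at least 33.3-fold higher in labelled HT-29 than in MCF10A and at least 27.3-fold higher than in labelled MDA-MB-436. Since the gene passed the filter on low values only through labelled HT-29, no test of it is given. No fold is given between the lines without a read.

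**Figure D1:**
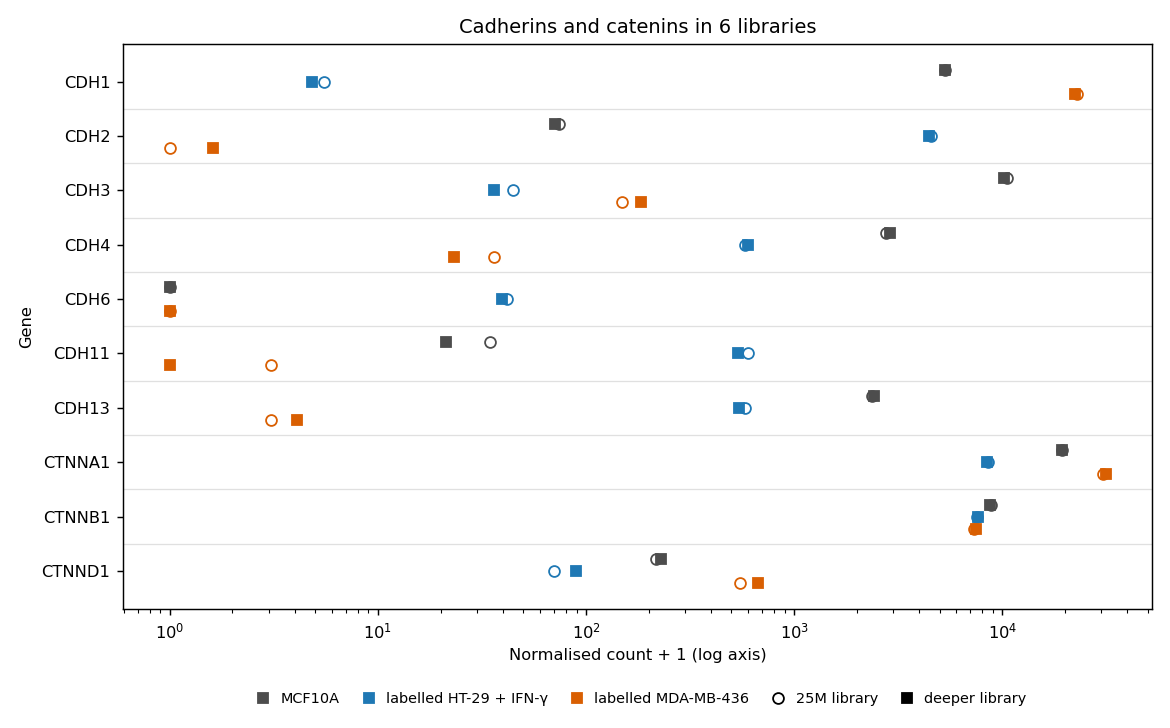
Normalised count + 1 (log axis) of the 10 genes in each of 6 libraries, with colour for the line as labelled, open circles for the 25M libraries and filled squares for the deeper ones. The CDH1 and CDH2 points lie in opposite order, with labelled HT-29 lowest for CDH1 (4.50 and 3.83) and highest for CDH2 (4553 and 4446), while the CTNNB1 points of all 6 libraries lie between 7316 and 8810.4.

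CTNNA1 encodes αE-catenin, which couples the cadherin complex to actin. Its normalised counts were 19426 and 19447 in MCF10A, 8570.0 and 8415 in labelled HT-29, and 30456 and 31416 in labelled MDA-MB-436. The groups followed the order of CDH1 over a far narrower range. It was 3.69-fold lower in labelled HT-29 than in labelled MDA-MB-436 (log2 fold change -1.86, limma adjusted p = 3.16e-10). Against MCF10A, labelled HT-29 differed by -1.19 (3.98e-09), which became -0.88 and lost the call when the counts were scaled by library size alone. The excess in labelled MDA-MB-436 over MCF10A was 0.67 (95% interval 0.61 to 0.73; limma adjusted p = 5.04e-08), under the fold threshold.

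CTNNB1 encodes β-catenin, which binds the cadherin tail and, apart from junctions, carries the Wnt signal to the nucleus. Its normalised counts were 8810.4 and 8732 in MCF10A, 7578 and 7684 in labelled HT-29, and 7316 and 7444 in labelled MDA-MB-436. The libraries of each group lay within a narrow band, and no comparison reached the fold threshold. The log2 fold change for labelled MDA-MB-436 over MCF10A was -0.25 (95% interval -0.30 to -0.19; limma adjusted p = 2.08e-05). For labelled HT-29 over MCF10A it was -0.20 (-0.26 to -0.15; limma adjusted p = 8.40e-05), and 0.11 when scaled by library size alone, so its sign depends on the scaling. Labelled HT-29 and labelled MDA-MB-436 differed by 0.05 (-0.01 to 0.10; limma adjusted p = 0.0874).

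CTNND1 encodes p120-catenin, which binds the cadherin tail near the membrane and slows its removal from the surface. Normalised counts were 215 and 228 in MCF10A, 69.0 and 88.1 in labelled HT-29, and 548 and 666 in labelled MDA-MB-436. The order of the groups was that of CDH1 and CTNNA1, without overlap. CTNND1 was called higher in labelled MDA-MB-436 than in MCF10A, with a log2 fold change of 1.44 ± 0.147 (SE; limma adjusted p = 3.29e-05). It was called lower in labelled HT-29 than in MCF10A, by -1.49 (limma adjusted p = 2.81e-05), and than in labelled MDA-MB-436, by -2.94 (limma adjusted p = 3.74e-07). These values are uncertain. In RefSeq the read-through gene TMX2-CTNND1 overlaps CTNND1, and the row of TMX2-CTNND1 had 0 reads in all 6 libraries. How reads shared by overlapping genes were counted is not given in the sources used here, and its part in the low level of CTNND1 (37.0 per kilobase in MCF10A, against 5193 for CTNNA1) was not tested.

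Of the 10 genes, 7 were called between labelled MDA-MB-436 and MCF10A, where 49.2% of all genes tested were called. CDH1 and CTNND1 were higher (background for higher 25.6%), and CDH2, CDH3, CDH4, CDH11 and CDH13 were lower (background for lower 23.7%). CDH6, which passed the filter only where it was high, is left out of the next counts, since its call was fixed by that. Between labelled HT-29 and MCF10A, 8 of the other 9 genes were called, against 46.5% of all genes. CDH2 and CDH11 were the 2 higher ones (background 28.4%), and CDH1, CDH3, CDH4, CDH13, CTNNA1 and CTNND1 the 6 lower ones (background 18.1%). Between labelled HT-29 and labelled MDA-MB-436, 8 of the 9 were called, against 53.4%. Here CDH2, CDH4, CDH11 and CDH13 were higher (background 29.9%), and CDH1, CDH3, CTNNA1 and CTNND1 were lower (background 23.5%). The median log2 fold changes of these 9 genes were -3.95, -1.49 and 0.05 in that order (-2.10, -1.34 and 2.201 with CDH6), beside 0, 0.13 and 0.09 for all genes tested. The 3 comparisons share libraries, so their counts are not independent of each other.

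**Figure D2:**
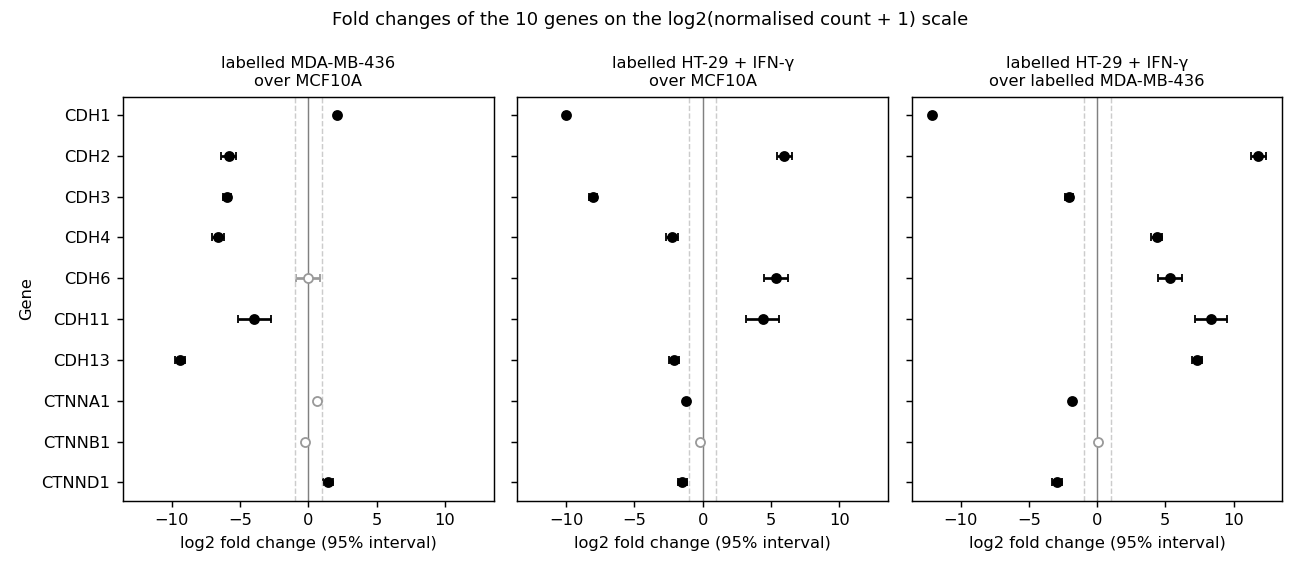
Log2 fold changes of the 10 genes on the log2(normalised count + 1) scale with 95% intervals from limma, 1 panel per comparison of the labelled lines. Filled points passed the call, open points did not (the calls of CDH6 were fixed by the filter on low values), and dashed lines mark a log2 fold change of 1 in either direction. CDH1 and CDH2 lie on opposite sides of 0 in each panel, and CTNNB1 lies within 0.25 of 0 throughout, with a sign for labelled HT-29 over MCF10A that turns from -0.20 to 0.11 under scaling by library size alone.

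Levels of different genes were compared per kilobase, using the gene lengths that the deposited RPKM values imply. For CDH11 and CDH13 these lengths (3635 and 3845 bp) were far below their longest RefSeq-mapped transcripts (6874 and 8042 bp). Their levels and shares would be lower at the longer lengths, so their places among the genes depend on the length used. The 7 cadherins summed to 4633 ± 26.0 normalised counts per kilobase (SD, n = 2) in MCF10A, 1441 ± 36.5 in labelled HT-29 and 4761 ± 42.3 in labelled MDA-MB-436. The sums of MCF10A and labelled MDA-MB-436 lay close together, though not within each other's SD, and labelled HT-29 held less than either. In MCF10A, CDH3 made up 52.7% ± 0.780 of the sum, CDH1 23.9% ± 0.190, CDH13 13.5% and CDH4 9.45%, with CDH2 at 0.354% and CDH11 at 0.160%. In labelled HT-29, CDH2 made up 71.8% ± 0.617, CDH11 10.8% ± 0.554, CDH13 10.1% ± 0.249 and CDH4 6.33%, with CDH1 at 0.0602%. In labelled MDA-MB-436, CDH1 made up 99.1% ± 0.0996 and CDH3 0.818%.

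**Figure D3:**
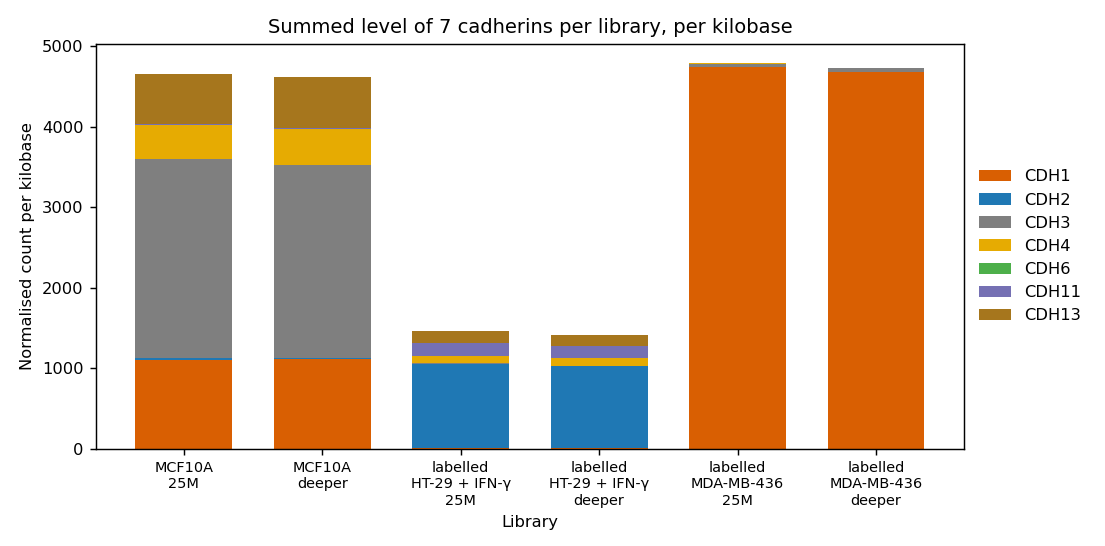
Summed level of the 7 cadherins in each of 6 libraries, in normalised counts per kilobase, stacked by gene. The bars of MCF10A are mostly CDH3 (52.7% on average), labelled HT-29 mostly CDH2 (71.8%) and labelled MDA-MB-436 almost wholly CDH1 (99.1%).

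Set against each other per kilobase, CDH1 exceeded CDH2 by 68.5-fold in MCF10A (59.2 to 79.8, pooled reads with 95% counting intervals). In labelled HT-29, CDH2 exceeded CDH1 by 1231-fold (669 to 2568). In labelled MDA-MB-436, with 1 CDH2 read, CDH1 exceeded CDH2 by 43126-fold (7739.8 to 1703405). As log2 ratios of CDH1 over CDH2, single libraries gave 6.04 and 6.11 in MCF10A, -10.12 and -10.32 in labelled HT-29, and 15.01 in the deeper of those labelled MDA-MB-436. Its 25M partner had no CDH2 read and gives no ratio. The ratio thus changed sign between labelled HT-29 and the other lines in every library that gave one.

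Among all 10 genes, CTNNA1 had the highest mean level per kilobase in each line: 5193 ± 4.01 (SD, n = 2) in MCF10A, 2269 ± 29.3 in labelled HT-29 and 8265 ± 181 in labelled MDA-MB-436. In MCF10A it was followed by CTNNB1 (2581 ± 16.3), CDH3 (2440.4 ± 49.8), CDH1 (1108 ± 2.59), CDH13 (624 ± 10.1), CDH4 (438 ± 14.4), CTNND1, CDH2 (16.4 ± 0.539) and CDH11 (7.41 ± 2.64). The places of CDH11 and CDH13, here and in labelled HT-29, rest on their implied lengths. In labelled HT-29, CTNNB1 (2245 ± 22.0) did not differ from CTNNA1 beyond their spread, nor did CDH11 (156 ± 11.9) from CDH13 (145 ± 7.27). CDH2 came after these catenins, at 1034 ± 17.3, and CDH4 (91.2 ± 1.69), CTNND1 (13.1 ± 2.26), CDH3 (9.22 ± 1.41), CDH6 (4.60 ± 0.182) and CDH1 (0.868 ± 0.0987) closed the order. In labelled MDA-MB-436, CDH1 stood second (4717 ± 46.6), above CTNNB1 (2171 ± 26.6), CTNND1 (101 ± 14.0) and CDH3 (38.9 ± 5.86). Of the last genes there, on 6 reads or fewer each, CDH13 (0.668 ± 0.188) did not differ from CDH11 (0.283 ± 0.400) beyond their spread, nor CDH11 from CDH2 (0.0708 ± 0.100). The ratio of CTNNA1 to CTNNB1 per kilobase was 2.01 in MCF10A, 1.01 in labelled HT-29 and 3.81 in labelled MDA-MB-436. Per unit of summed cadherin, CTNNB1 stood at 0.557, 1.56 and 0.456 in the same order. Since CTNNB1 itself differed little, this ratio mostly restates the cadherin sum, which includes CDH13. For CTNNA1 the same ratio was 1.12, 1.57 and 1.74.

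The genes whose pattern over the 6 libraries lay closest to CDH1 were found by the root-mean-square difference of centred log2(normalised count + 1) values. They were ST14 (0.545), KLK10 (0.736), CBLC (0.753), GALNT3 (0.828) and PRSS8 (0.839). ST14, the membrane protease matriptase, had mean normalised counts of 7987 in MCF10A, 2.59 in labelled HT-29 and 14980.3 in labelled MDA-MB-436. For CDH2 they were PTX3 (0.375), SPOCK1 (0.392), RRAGD (0.406), CRMP1 (0.467) and SLC2A3 (0.529). PTX3, a secreted pattern recognition protein, had means of 130.1 in MCF10A, 4625 in labelled HT-29 and 0.616 in labelled MDA-MB-436. The 6 libraries fall in 3 pairs, so these likenesses describe 3 lines and carry no test.

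Of 15 listed transcription factors that act on cadherin genes, all of them tested, 4 were called higher and 7 lower in labelled MDA-MB-436 than in MCF10A, with a median log2 fold change of -1.05. Between labelled HT-29 and MCF10A, 5 were higher and 7 lower (median -0.30), and between labelled HT-29 and labelled MDA-MB-436, 9 were higher and 6 lower (median 3.36). For this list and those below, the shares of all genes called and the medians of all genes are those given above. GRHL2 passed the filter on low values only through labelled MDA-MB-436, and GSC (28.5 and 26.3) only through labelled HT-29. The filter thus favoured their calls between those groups and the others. GRHL2, an epithelial factor that activates CDH1, had normalised counts of 3693 and 3779 in labelled MDA-MB-436 and at most 1.50 in the other 4 libraries. OVOL1, another epithelial factor, stood at 1758 and 1872 in labelled MDA-MB-436, 33.7 and 21.1 in MCF10A, and 3.00 and 0 in labelled HT-29. Both were highest in labelled MDA-MB-436, which the filter fixed for GRHL2, and MCF10A had 0 and 0.491 for GRHL2. The relation of either factor to CDH1 was not tested.

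Among repressors of CDH1, ZEB2 had normalised counts of 1307 and 1354 in labelled HT-29, 89.9 and 104 in MCF10A and 16.5 and 16.0 in labelled MDA-MB-436. It was called in all 3 comparisons, with a log2 fold change of 3.77 for labelled HT-29 over MCF10A (limma adjusted p = 4.79e-08). ZEB1, named after its values were seen, had the same order, with 1002 and 1062 in labelled HT-29, 154 and 153 in MCF10A, and 101 and 98.5 in labelled MDA-MB-436. Its step from MCF10A to labelled MDA-MB-436 was not called (log2 fold change -0.62). SNAI1, which encodes Snail and is also named after its values were seen, was highest in labelled HT-29 too (219 and 215), but labelled MDA-MB-436 (49.4 and 46.2) stood above MCF10A (18.7 and 17.2). That difference was called, with a log2 fold change of 1.36 (limma adjusted p = 1.08e-04), and lost the call when tested against a fold of 2. SNAI2, which encodes Slug, had another order: MCF10A was highest (3709.6 and 3686), labelled HT-29 had 216 and 248, and labelled MDA-MB-436 had 2.06 and 0. TWIST1, a mesenchymal factor, had 1508 and 1534 in labelled HT-29, 768 and 797 in MCF10A, and 2.06 and 0 in labelled MDA-MB-436. Its difference between the first 2 was 0.96 (limma adjusted p = 0.0855), short of a call, and 1.27 with a call under scaling by library size alone. TWIST2 had 476 and 497 in MCF10A, 386 and 405 in labelled HT-29, and no read in labelled MDA-MB-436. FOXC2 likewise had none there, with 539 and 518 in MCF10A and 125 and 97.9 in labelled HT-29. These 4 factors (SNAI2, TWIST1, TWIST2 and FOXC2) had at most 2.06 in labelled MDA-MB-436 and were present in both other groups. The same held for TCF4, named after its values were seen, with 386 and 412 in MCF10A, 167 and 166 in labelled HT-29, and no read in labelled MDA-MB-436. KLF8, a repressor of CDH1, was highest in MCF10A (378 and 384), against a mean of 22.8 ± 8.84 (SD, n = 2) in labelled HT-29 and 45.3 and 53.6 in labelled MDA-MB-436. OVOL2 stood at 202 and 257 in MCF10A, 16.5 and 17.0 in labelled HT-29, and 165 and 183 in labelled MDA-MB-436. Also named after its values were seen, TCF3 was highest in MCF10A (11014 and 11111) and lowest in labelled HT-29 (2445 and 2474). Its counts in labelled MDA-MB-436 were 5964 and 5896. ELF3, named likewise, was highest in labelled MDA-MB-436 (27890.5 and 28908) and higher in labelled HT-29 (2151 and 2142) than in MCF10A (489 and 481).

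**Figure D4:**
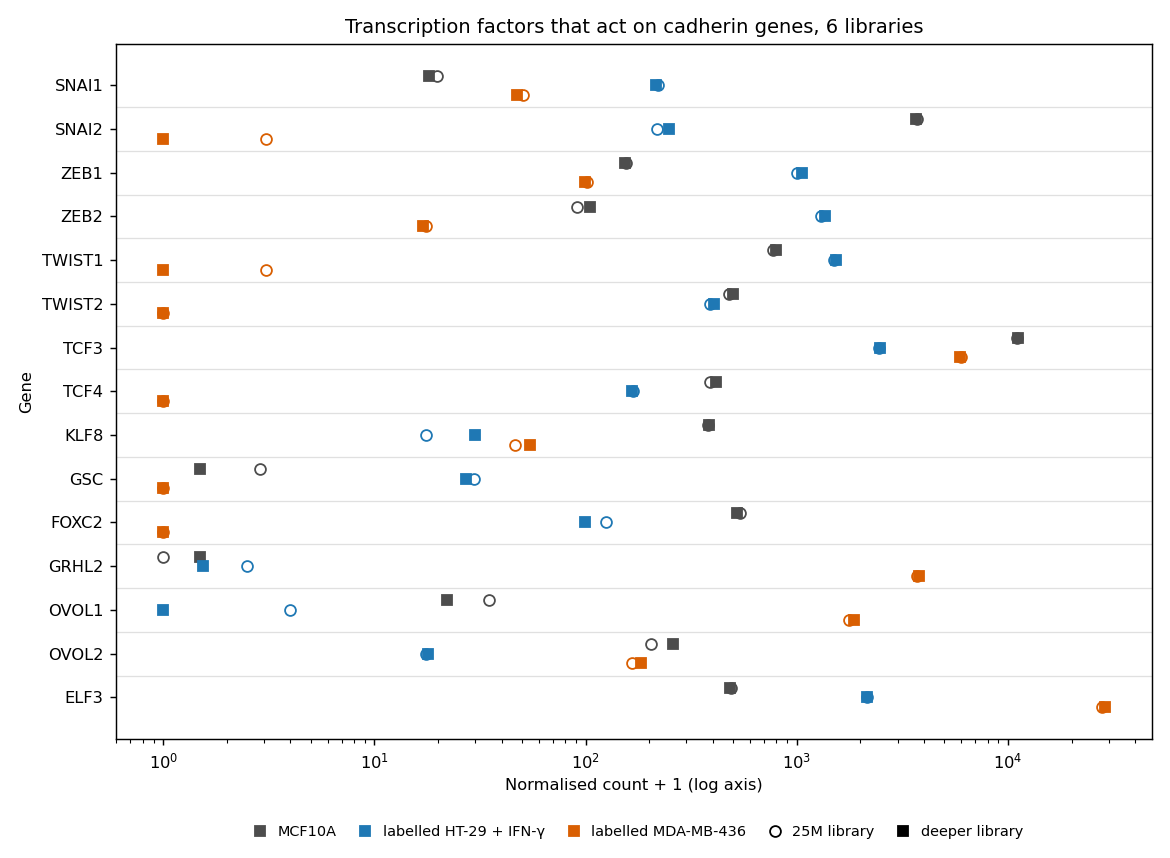
Normalised count + 1 (log axis) of 15 transcription factors that act on cadherin genes in each of 6 libraries, coloured by the line as labelled, with open circles for the 25M libraries and filled squares for the deeper ones. GRHL2 and OVOL1 are highest in labelled MDA-MB-436 (3693 and 3779 for GRHL2), ZEB1 and ZEB2 in labelled HT-29 (1307 and 1354 for ZEB2), and SNAI2 in MCF10A (3709.6 and 3686).

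Of 15 listed relatives and junction partners of the catenins, 13 were tested. For labelled HT-29 over labelled MDA-MB-436, 4 were higher and 9 lower (median log2 fold change -2.14), beside 6 higher and 3 lower for labelled MDA-MB-436 over MCF10A (0.40), and 2 higher and 5 lower for labelled HT-29 over MCF10A (-0.07). JUP, which encodes γ-catenin (plakoglobin), a β-catenin relative of junctions and desmosomes, had normalised counts of 18325 and 18103 in MCF10A, 1221 and 1141 in labelled HT-29, and 23674 and 24538 in labelled MDA-MB-436. It was 15.6-fold lower in labelled HT-29 than in MCF10A (15.0 to 16.2; log2 fold change -3.95, limma adjusted p = 1.68e-10). Its order across the lines was that of CDH1 and CTNNA1. CTNND2, the neural relative of p120-catenin, stood at 182 and 193 in labelled HT-29 and at most 1.87 in the other 4 libraries. It passed the filter on low values only through labelled HT-29, which favoured its calls for that group. CTNND2 was also called lower in labelled MDA-MB-436 than in MCF10A (log2 fold change -1.07). That call rested on 1 read against 4 and was lost with edgeR and with DESeq2. ARVCF, another p120 relative, had 3181 and 3184 in labelled MDA-MB-436, 112 and 166 in MCF10A, and 243 and 232 in labelled HT-29. PKP4, of the same family, was also highest in labelled MDA-MB-436 (11073 and 11022), with 3344 and 3477 in MCF10A and 1578 and 1622 in labelled HT-29.

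Nectins are adhesion molecules that sit beside cadherins at adherens junctions and bind afadin. PVRL1 (nectin-1) had normalised counts of 18774 and 18814 in MCF10A, 866 and 783 in labelled HT-29, and 3636 and 3610.4 in labelled MDA-MB-436. PVRL2 (nectin-2) had 14583 and 15058 in labelled MDA-MB-436, with 1768 and 1739.9 in MCF10A and 1725 and 1625 in labelled HT-29. PVRL3 (nectin-3), named after its values were seen, was highest in labelled HT-29, at 1098 and 1130, against 444 and 395 in MCF10A and 309 and 293 in labelled MDA-MB-436. PVRL4 (nectin-4) was lowest in labelled HT-29, at 79.5 and 69.5, against 485 and 482 in MCF10A and 502 and 545 in labelled MDA-MB-436. In labelled HT-29 against MCF10A, PVRL1 and PVRL4 were called lower and PVRL3 higher (log2 fold change 1.41, limma adjusted p = 6.17e-07), while PVRL2 differed by -0.07 (limma adjusted p = 0.125), or 0.24 under scaling by library size alone.

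Outside the 10 genes, 21 other cadherin genes were listed, of which 13 reached the filter on low values. CDH7, CDH12, CDH18, CDH23 and CDH26 passed it only through labelled HT-29, and CDH8, CDH10 and CDH16 only through MCF10A. CDH17 and CDHR5 passed it only through labelled MDA-MB-436. The filter thus favoured calls of these genes between that line and the others. The counts and medians that follow are therefore no result about the list. In labelled MDA-MB-436 against MCF10A, 4 were higher and 4 lower (median log2 fold change 0.35), and in labelled HT-29 against MCF10A, 5 were higher and 3 lower (0.95). Set against labelled MDA-MB-436, labelled HT-29 had 6 higher and 3 lower (0.99, or 0.97 with genes at 0 reads in 1 line set to their bound). CDHR5, a protocadherin of the intestinal brush border, had normalised counts of 3368 and 3482 in labelled MDA-MB-436 and at most 1.64 in the other 4 libraries. CDH16, the kidney cadherin, stood at 154 and 159 in MCF10A and at most 3.00 elsewhere. CDH24 was present in all lines, at 279 and 300.0 in MCF10A, 599 and 541 in labelled HT-29, and 266 and 209 in labelled MDA-MB-436.

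Of 12 genes that shed, internalise or dephosphorylate cadherins, all of them tested, 3 were higher and 2 lower in labelled MDA-MB-436 than in MCF10A (median log2 fold change 0.30), and 1 was higher and 2 lower in labelled HT-29 (-0.10). None of the 12 was called between labelled HT-29 and labelled MDA-MB-436 by limma, edgeR or DESeq2, although 12 of 12 had an unadjusted p below 0.05, since their log2 fold changes lay between -0.95 and 0.75 (median -0.21). ADAM10 also missed the threshold on the adjusted p there (limma adjusted p = 0.0533). Scaling by library size alone called 2. PTPRJ, a receptor phosphatase that acts on p120-catenin, had normalised counts of 169 and 161 in MCF10A, 2423 and 2366 in labelled HT-29, and 1480.2 and 1375 in labelled MDA-MB-436. PTPRM, a phosphatase that binds cadherin complexes, ran the other way, with 1709.7 and 1792 in MCF10A, 362 and 378 in labelled HT-29, and 334 and 303 in labelled MDA-MB-436. ADAM15, a protease that sheds E-cadherin, stood at 21995 and 22229 in MCF10A, 4748 and 4558 in labelled HT-29, and 5812 and 5922 in labelled MDA-MB-436. In each of these 3 genes MCF10A lay apart from the other lines. PTPRK, a related phosphatase, was called higher for labelled MDA-MB-436 over MCF10A (log2 fold change 1.55), with 0.77 for labelled HT-29.

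Of the genes that degrade β-catenin, act with it or answer to it, 17 were tested, and 9 were higher and 3 lower in labelled MDA-MB-436 than in MCF10A (median log2 fold change 1.68), and 3 were higher and 2 lower in labelled HT-29 (0.37). For labelled HT-29 over labelled MDA-MB-436, 2 were higher and 7 lower (-0.78). ASCL2 and NOTUM passed the filter on low values only through labelled MDA-MB-436, which favoured their calls for that group. AXIN2, a feedback inhibitor and target of Wnt signalling, had normalised counts of 1.87 and 3.44 in MCF10A, 216 and 230.4 in labelled HT-29, and 1264 and 1237 in labelled MDA-MB-436. RNF43, which removes Wnt receptors, had 7428 and 7366 in labelled MDA-MB-436, 320.2 and 293 in MCF10A, and 30.0 and 24.6 in labelled HT-29. ASCL2, an intestinal stem cell factor, had 269.7 and 286 in labelled MDA-MB-436 and at most 0.547 elsewhere. These 3 genes were highest in labelled MDA-MB-436, which the filter fixed for ASCL2. Their relation to the level of CTNNB1 was not tested. LEF1, a DNA-binding partner of β-catenin, was without a read in labelled MDA-MB-436, with 320.2 and 369 in MCF10A and 459 and 508 in labelled HT-29. TCF7L1, a partner that mostly represses, had the same order, with 322 and 296 in MCF10A, 423 and 355 in labelled HT-29, and 26.8 and 24.0 in labelled MDA-MB-436. TCF7L2, a further partner, named after its values were seen, was by contrast highest in labelled MDA-MB-436 (4412 and 4270.1), with 899 and 978 in MCF10A and 1230.1 and 1200.5 in labelled HT-29. The partners thus differed among themselves in the group where they were highest. TCF7, another partner, was higher in both other lines than in MCF10A (197 and 184), with 1002 and 1071 in labelled HT-29 and 1001 and 987 in labelled MDA-MB-436. SP5, a Wnt target, had 81.0 and 51.4 in labelled HT-29, 117 and 127 in labelled MDA-MB-436, and at most 0.491 in MCF10A, and NKD1, an inhibitor of the pathway, was highest in MCF10A (129 and 103).

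**Figure D5:**
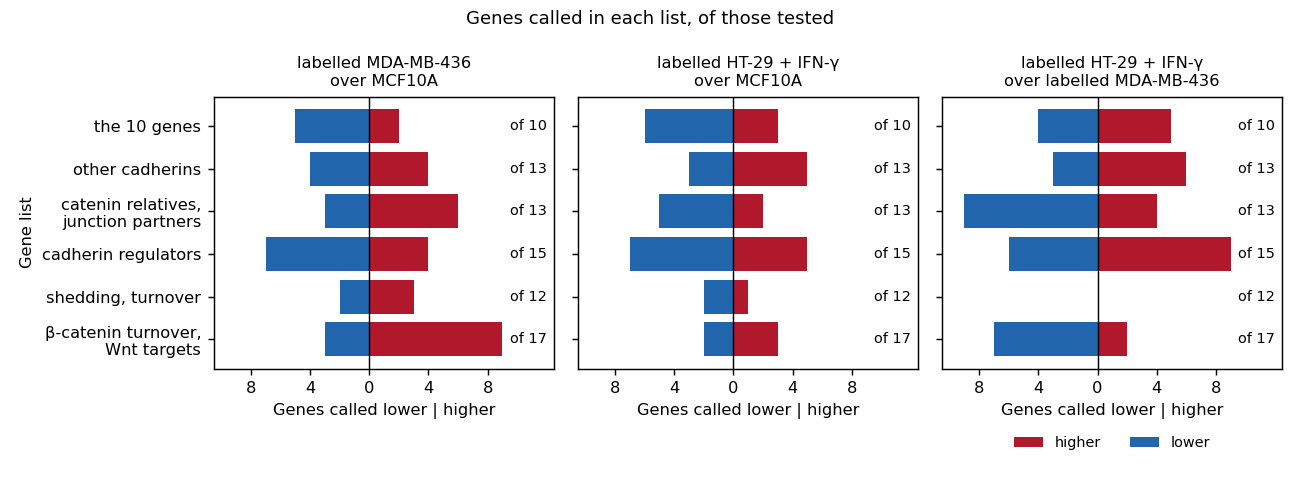
Number of genes called higher (red, to the right) and lower (blue, to the left) in each list, out of the genes tested, 1 panel per comparison of the labelled lines. The bars of the 10 genes reach 7, 9 and 9 in all (7, 8 and 8 without CDH6, which passed the filter only through labelled HT-29), and the list of shedding and turnover genes has no bar between labelled HT-29 and labelled MDA-MB-436, where scaling by library size alone called 2. The lists of other cadherins, catenin relatives, regulators and Wnt genes also hold genes that passed the filter through 1 line alone.

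Libraries held 16.7 to 69.5M reads in genes. When the reads were scaled by library size alone, the median log2 fold change over all genes shifted by 0.304 for labelled HT-29 over MCF10A, with 5376 genes called higher and 1994 lower in place of 4442 and 2823. For labelled HT-29 over labelled MDA-MB-436 it shifted by 0.323, with 5617 higher and 2822 lower in place of 4675 and 3675. Of the 10 genes only CTNNA1 lost a call by this, in the first of these comparisons, and only CTNNB1 changed sign. Markers of leukocytes, endothelium and fibroblasts were low: the 8 genes summed to normalised counts of 187 to 215 in MCF10A, 93.6 to 120.0 in labelled HT-29 and 46.2 to 49.4 in labelled MDA-MB-436, with 1 to 5 of them at 0 in a library. DCN carried most of the sum in MCF10A (193 and 157), PECAM1 in labelled HT-29 (109.5 and 77.7) and LUM in labelled MDA-MB-436 (35.0 and 34.5). The endothelial cadherin CDH5 reached at most 1.50. The part of other cells in the levels of the 10 genes was not tested.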

How the data were processed

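RNA of 6 libraries, 2 from each of 3 cell lines, was sequenced as 50-bp paired ends. The submitters' processing notes name FastQC, STAR 2.2.0, HTSeq and the build hg19, without role or settings. Which annotation and strandedness were used is not given in the sources used here. Reads shared by genes that overlap can therefore not be separated. Per the file headers, the 23368 rows of each deposited table pair a symbol with a normalised count and RPKM. The first of these deposited columns is a signal, read counts with 1 scale factor per library: 100% of values were whole multiples of 1 step (tolerance 0.001), so whole reads were recovered. The deposited RPKM column was out of register with the symbols in 3524 rows (15.1%), though not for the 10 genes, and served only for gene lengths. After 28 rows whose symbols read as dates, among them the 4 rows with a repeated name, were left out, 23340 names remained.

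limma 3.58.1 (R 4.3.3; trended, robust prior) was fitted to log2(normalised count + 1) for genes that reached 10 in 2 or more libraries. All 6 libraries shared 1 fit, with 3 residual degrees of freedom. Alternatives were edgeR 4.0.16 and DESeq2 1.42.0 on recovered reads, other pseudocounts, filters and scalings, depth class as a block, a test against a fold of 2, the MCF10A libraries summed as 1 sample, and each library left out. The script was tested on simulated data. The median chi-square between the libraries of a line was 0.553, 0.730 and 0.686 for MCF10A, labelled HT-29 and labelled MDA-MB-436, beside 0.455 under sampling alone. Pooled-read folds carry 95% Clopper-Pearson intervals, and a line at 0 reads was set to 3 reads over the line. The 10 genes and all lists were chosen with earlier results of these data known. From each other list and comparison, up to 4 called genes with the largest change and a mean of at least 100 in the higher line are named, and for CDH1 and CDH2 the 5 genes most alike.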

Additional observations from a re-analysis of the deposited data

How the results depend on the processing

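Over all alternatives, the 10 genes gave 505 log2 fold changes with the direction and call of the main fit, 1 that lost its call (CTNNA1, above) and 1 that changed sign, and all 51 counts of the genes called stayed within 1.5 times. Under scaling by library size alone, labelled HT-29 against MCF10A gave log2 fold changes of 0.11 for CTNNB1 (in place of -0.20), 0.24 for PVRL2 (-0.07) and 0.012 for TWIST2 (-0.30), and the shedding and turnover genes called between labelled HT-29 and labelled MDA-MB-436 went from 0 to 2. A filter at 100 left 2, 1 and 2 of the other cadherins called in place of 8, 8 and 9 (labelled MDA-MB-436 over MCF10A, labelled HT-29 over MCF10A, labelled HT-29 over MDA-MB-436), and 1, 1 and 0 of the markers of other cell types in place of 3, 3 and 2, since fewer genes were tested. Testing against a fold of 2 left 5 other cadherins in place of 9 in the last comparison. Without the deeper MCF10A library, KRT20, with 3 reads in MCF10A and 1 in labelled HT-29, gave a log2 fold change of 0.315 for labelled HT-29 over MCF10A, and -0.99 without the 25M one, in place of -0.34. The labels give no replicate numbers that pair libraries across lines. With depth class, taken from the titles, as a replicate block, the counts of the 10 genes called stayed at 7, 9 and 9. Depth limits CDH2, CDH11 and CDH13 in labelled MDA-MB-436, on 1, 1 and 6 reads, and CDH1 in labelled HT-29, on 10 reads.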

Other observations

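Further cadherins at low levels, named after their values were seen, also differed in the line where they were highest. CDH17, the intestinal LI-cadherin, had normalised counts of 94.7 and 93.0 in labelled MDA-MB-436 and at most 1.87 elsewhere. CDH12 (28.5 and 18.1), CDH18 (22.5 and 28.5) and CDH23 (30.0 and 35.0) were highest in labelled HT-29. CDH8 (16.9 and 13.3) and CDH10 (11.2 and 11.8) were highest in MCF10A, and CDH9 and CDH19 had no read in any library.

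Rows named for read-through transcripts, such as TMX2-CTNND1, were mostly empty: 81 of 110 had 0 reads in all 6 libraries. TMX2, the upstream gene of that pair, had normalised counts of 4915 and 4814 in MCF10A, 4569 and 4481 in labelled HT-29, and 3601 and 3614 in labelled MDA-MB-436. LRRTM2, which overlaps CTNNA1 in RefSeq, held 76 reads over all 6 libraries.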
